A study of Homo sapiens with 18 samples.

Results

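Untreated TG2 knockout NB4 cells were compared with untreated wild-type NB4 cells before any retinoid was given. The arrays were chosen by their titles: 3 are titled untreated TG2 knockout and 3 untreated wild-type, which is 6 of the 18 arrays of the study. NB4 is an established line of a human acute promyelocytic leukemia, with cells held at the promyelocyte stage that mature towards neutrophil-like cells under all-trans retinoic acid (ATRA), a ligand of the retinoic acid receptors. Neither of these groups had received ATRA (0 h). The other 12 arrays, 3 of each genotype after 48 h and 3 after 72 h of 1 µM ATRA, are used here only to see whether a difference of the untreated lines was also present in cells that share no array with them. The genotype labels are TG2 knockout and wild-type. The titles say knockout, while the short codes of the same samples carry the letters KD. The labels do not say how the line was made, whether it is 1 clone or whether the wild-type cells carry a control construct. Each group holds 3 biological replicates, without word on whether they were separate cultures, so p-values measure the spread between these 6 arrays.

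TG2 is transglutaminase 2, encoded by TGM2, an enzyme that uses calcium to crosslink glutamine and lysine residues of proteins and that also binds GTP. In promyelocytic cells TGM2 is a classical ATRA-induced gene. A baseline comparison of the lines therefore shows differences in transcript levels at a stage at which the targeted gene has not been induced.

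The values are log2 array signals, 1 per probe set, a group of probes summarised into 1 value. A difference of 1 on this scale is 2-fold, and every difference below is knockout minus wild-type. Across all 33297 probe sets the arrays correlated with r between 0.9943 and 0.9957 within the knockout, between 0.9966 and 0.9969 within the wild-type, and between 0.9942 and 0.996 from knockout to wild-type. The median SD of a probe set was 0.0985 in the knockout and 0.0757 in the wild-type. Transcripts of neutrophil precursors were read in both lines. Myeloperoxidase (MPO) averaged 12.68 in the knockout and 12.69 in the wild-type, proteinase 3 (PRTN3) 12.06 and 11.99, neutrophil elastase (ELANE) 7.36 and 7.34, and MS4A3 10.55 and 10.63, with the knockout first in each pair. Those genes are examples from a list of promyelocyte markers, 11 of which were measured, and do not show its spread. Differences on that list ran from −0.24 to 0.65, and 1 member was called. In 5 of the 11 the knockout and wild-type arrays did not overlap, against 19.6% of all genes. The files hold no background measure or detection call, so a low signal cannot be read as an absent transcript.

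TGM2 itself did not separate the untreated lines. Its signal was 6.30, 6.51 and 6.36 in the knockout arrays and 6.40, 6.27 and 6.61 in the wild-type arrays. The groups overlapped, and the difference of −0.04 (SE 0.10) had an adjusted p of 0.914. The sign of this difference was not stable and turned to 0.01 without knockout replicate 1 and to 0.06 without wild-type replicate 3. In the ATRA arrays TGM2 averaged 10.95 in the knockout and 12.27 in the wild-type at 48 h, and 11.24 in the knockout and 12.37 in the wild-type at 72 h. The knockout signal was thus 40.2% of wild-type at 48 h and 45.7% at 72 h (log2 difference over both times −1.22, adjusted p = 0.00805). The genotype difference under ATRA departed from the untreated one by −1.19 (adjusted p = 0.0415). The targeted transcript thus gave no check of the untreated knockout label. Among the other members of the family, the blood clotting enzyme subunit F13A1 and the transglutaminases TGM1, TGM3, TGM4, TGM5 and TGM6 also had no call, and the differences of all 9 measured members lay between −0.26 for TGM4 and 0.08 for F13A1.

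A probe set was called when its adjusted p was under 0.05 in a limma fit of the 6 untreated arrays, adjusted over all probe sets. Of the 33297 probe sets 284 were called (0.853%), 124 higher in the knockout (0.372%) and 160 lower (0.481%), and 4746 had an unadjusted p under 0.05. In 6041 probe sets (18.1%) the knockout and wild-type arrays did not overlap. Counted as genes, each by 1 probe set, 167 of 18417 were called (0.907%), 102 higher (0.554%) and 65 lower (0.353%). The differences were small: 8 called probe sets reached 2-fold, 4 of which belong to a single gene. Among the 170 called probe sets of a single gene the median size was 0.39, and 137 of them (80.6%) differed by less than 1.5-fold. Of these 170, 103 were higher in the knockout and 67 lower. A further 93 calls fell on probe sets with no annotated gene, of which 82 were lower in the knockout. The annotation used does not say what these probe sets read, so they cannot be taken as transcripts. Over all 12083 probe sets with no annotated gene, called or not, the median signal was 5.19 and the median difference −0.04, against 6.64 and 0 over all probe sets of 1 gene.

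**Figure D1:**
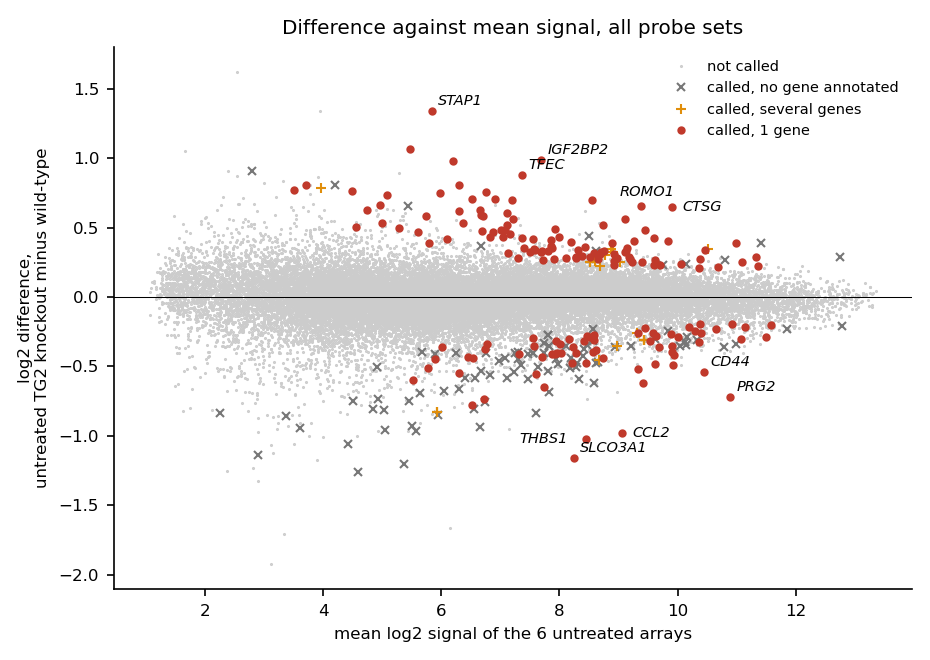
Log2 difference of untreated TG2 knockout minus untreated wild-type cells (vertical axis) against the mean log2 signal of the 6 arrays (horizontal axis), 1 point per probe set. Grey points were not called, and the 284 called probe sets are marked by whether they are annotated to 1 gene, several genes or none; most of the 93 called probe sets without a gene lie below 0.

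The count of calls depended on single arrays. It was 138 without knockout replicate 1, 68 without knockout replicate 2 and 1471 without knockout replicate 3, and 17, 16 and 22 without wild-type replicates 1, 2 and 3. In all 6 of these fits 15 probe sets were called. Of these, 11 have a single gene: STAP1, TFEC, CTSG, ROMO1 and MFAP4 were higher in the knockout, and SLCO3A1, THBS1, CCL2, PRG2, MAPK9 and CD44 were lower. Probe sets 8149116, 8149126 and 8149137 among the 15, each annotated to 3 genes, had the same values in every untreated array. They repeat 1 measurement, lower in the knockout (−0.83, adjusted p = 0.00303) and also in the ATRA arrays (−0.88, adjusted p = 0.025). The full set of calls holds other such copies. Of the 30 genes named by size below, 8 were called in all 6 fits, and between 8 and 30 in any one of them. Centring each array on its median gave 142 higher and 107 lower calls, and quantile normalization 175 higher and 151 lower, so the share of higher calls moved to 57% and 53.7%, against 43.7% in the deposited scaling.

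The gene with the largest gain and the gene with the largest loss are shown by their promoters, to give the sequence context of the ends of the list. Both are the 250 bases before the transcription start in RefSeq, build GRCh38.p14, plus strand, 5′ to 3′. STAP1 is at chr4:67558477-67558726, and SLCO3A1 at chr15:91853458-91853707, for which the start furthest upstream was taken. Capitals mark GAGGAAGT, the core bound by the myeloid factor PU.1, which in STAP1 lies on the reverse strand, and GGGCGG, the GC box bound by Sp1.
STAP1: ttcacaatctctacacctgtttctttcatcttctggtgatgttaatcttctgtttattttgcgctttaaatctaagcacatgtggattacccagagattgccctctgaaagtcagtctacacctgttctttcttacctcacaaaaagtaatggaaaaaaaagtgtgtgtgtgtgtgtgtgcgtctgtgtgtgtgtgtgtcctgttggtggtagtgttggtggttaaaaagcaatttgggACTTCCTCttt
SLCO3A1: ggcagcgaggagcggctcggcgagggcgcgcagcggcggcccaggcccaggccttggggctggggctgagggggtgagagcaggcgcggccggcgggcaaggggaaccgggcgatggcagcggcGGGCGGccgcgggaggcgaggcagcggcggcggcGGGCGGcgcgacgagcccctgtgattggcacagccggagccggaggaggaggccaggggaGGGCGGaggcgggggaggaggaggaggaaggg
On either strand the GC box was found in 42.2% and the PU.1 core in 2.09% of all 27305 promoters of this length. Of the 15 genes with the highest and the 15 with the lowest differences, 14 and 9 had a listed promoter. The GC box was in 8 of those 14 and 7 of those 9, and the PU.1 core in 1 of the 14 and none of the 9. The other motifs searched on both strands were TGANTCA (AP-1), TGACGTCA (the cyclic AMP response element), CACGTG (the E-box) and TATAAA (the TATA box), which are in 6.57%, 1.75%, 6.46% and 11.2% of all promoters. Among the promoters of the 14 genes AP-1 was found in 1 and TATA in 2, and among those of the 9 genes the E-box in 1. These matches are letters in a window and were not tested as binding sites.

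The largest gain was that of STAP1. STAP1, an adaptor protein that acts downstream of the tyrosine kinase Tec, had signals of 6.66, 6.44 and 6.42 in the knockout and 5.15, 5.10 and 5.26 in the wild-type. Every knockout array was above every wild-type array, and the signal was 2.53-fold higher (log2 difference 1.34, SE 0.09, adjusted p = 0.00126). TFEC is a transcription factor of the MiT family, found in macrophages. It had 7.79, 7.81 and 7.81 in the knockout and 6.91, 6.84 and 7.02 in the wild-type, groups apart by 0.88 (SE 0.06, adjusted p = 0.00126). PTPRK, a receptor protein phosphatase, had 5.52, 5.33 and 5.47 in the knockout and 4.79, 4.66 and 4.67 in the wild-type (difference 0.73, adjusted p = 0.0137). CLEC2B and KLRC3 are C-type lectin-like genes of the natural killer cell gene complex on chromosome 12. CLEC2B had 4.16, 4.19 and 3.97 in the knockout and 3.46, 3.28 and 3.17 in the wild-type, and KLRC3 4.65, 4.91 and 5.04 in the knockout and 4.14, 4.14 and 4.02 in the wild-type. Both were called (0.80, adjusted p = 0.0267, and 0.77, adjusted p = 0.0316). KLRC3 has close paralogs whose transcripts its probes could share.

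IGF2BP2, an RNA-binding protein that stabilises target messengers, had 8.33, 8.23 and 7.99 in the knockout and 7.13, 7.17 and 7.30 in the wild-type. Its groups were separate, with a difference of 0.98 (SE 0.09, adjusted p = 0.00571). CRIPTO, a co-receptor of Nodal signalling in the embryo, had 6.26, 6.07 and 5.69 in the knockout and 5.04, 5.14 and 4.64 in the wild-type. This was the widest spread among the genes named, and the difference of 1.07 had an SE of 0.17 (adjusted p = 0.0371); the gene has pseudogene copies that its probes could share. The kinesin KIF21A, a microtubule motor protein, had 6.87, 6.66 and 6.55 in the knockout and 5.55, 5.68 and 5.92 in the wild-type (0.98, adjusted p = 0.0126). MYO1D, an unconventional myosin, had 7.41, 7.24 and 7.15 in the knockout and 6.50, 6.54 and 6.64 in the wild-type (0.71, adjusted p = 0.0107). ARHGAP5 had 6.68, 6.91 and 7.01 in the knockout and 6.24, 6.09 and 6.15 in the wild-type (0.71, adjusted p = 0.0181). The arrays of KIF21A, MYO1D and ARHGAP5 did not overlap, as in the other genes chosen by the size of their difference.

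OSBPL6, an oxysterol-binding protein family member, had 6.75, 6.82 and 6.53 in the knockout and 5.89, 5.87 and 5.91 in the wild-type (0.81, adjusted p = 0.00912). SELENOP, the secreted selenium carrier, had 3.77, 4.06 and 3.83 in the knockout and 3.10, 3.03 and 3.22 in the wild-type (0.77, adjusted p = 0.0308). The mean signals of SELENOP and CLEC2B were low, at percentiles 10.3 and 12.1 of all probe sets. Each was called in only 1 of the 6 fits that left out 1 array. So were CRIPTO above and, among the losses described below, NRP1, SLC24A3 and LAPTM4B. TCAF1, a partner of TRP channels, differed by 0.76 (adjusted p = 0.0115) in its brightest probe set, while its other probe sets gave 0.12 (adjusted p = 0.766) and 0.42 (adjusted p = 0.13), so the gene was called by 1 of its probe sets. THSD7A, a membrane protein with thrombospondin repeats, differed by 0.75 (adjusted p = 0.00997). APBB2, an adaptor that binds the amyloid precursor protein, had 7.64, 7.59 and 7.43 in the knockout and 6.86, 6.88 and 6.82 in the wild-type (0.70, adjusted p = 0.00653). It tied for the last of the 15 places with CA2, carbonic anhydrase 2, which interconverts carbon dioxide and bicarbonate. CA2 had 8.77, 9.09 and 8.86 in the knockout and 8.29, 8.16 and 8.17 in the wild-type (0.70, adjusted p = 0.0125).

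**Figure D2:**
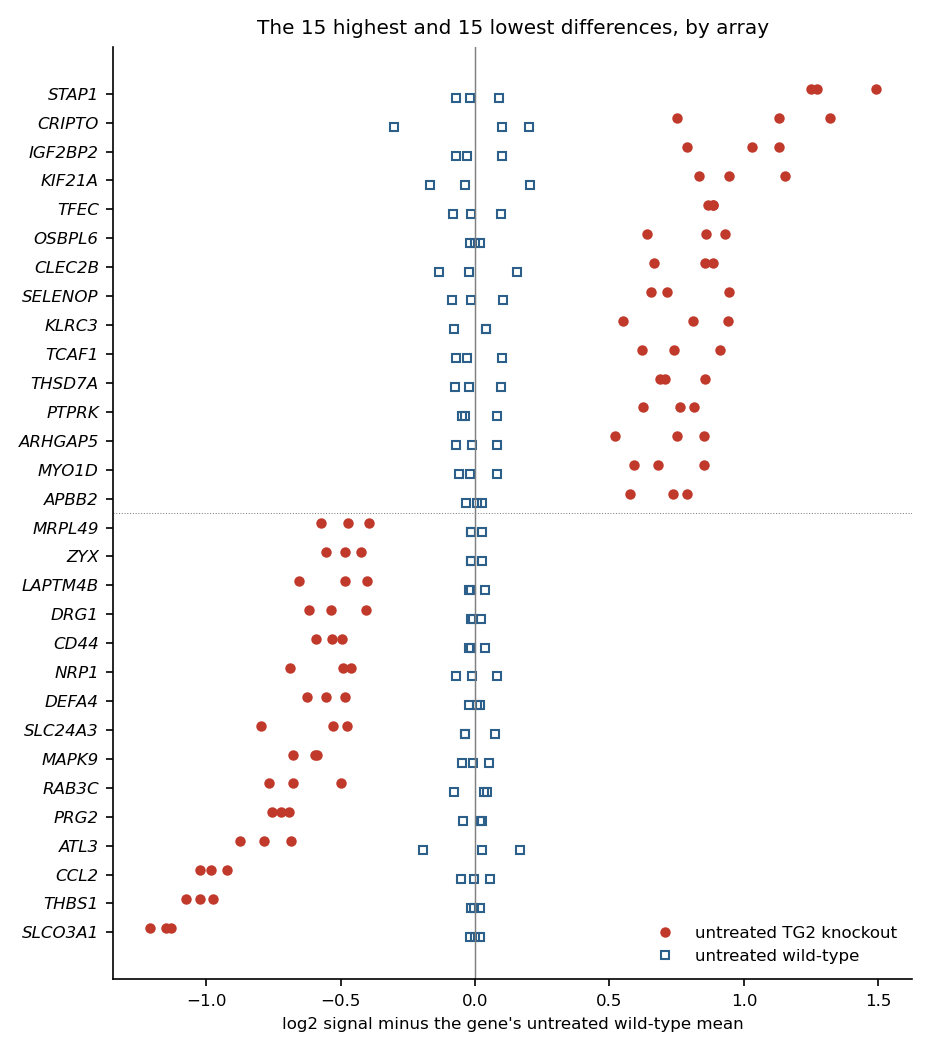
Log2 signal of each array minus the gene's untreated wild-type mean (horizontal axis) for the 15 genes with the highest and the 15 with the lowest called differences. Filled circles are the 3 untreated TG2 knockout arrays and open squares the 3 untreated wild-type arrays. The groups of every gene shown are apart, but the genes were chosen by their differences in these same arrays. CRIPTO is the most spread, and SLCO3A1 and THBS1 are among the tightest.

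The largest losses were those of SLCO3A1, THBS1 and CCL2. SLCO3A1, an organic anion transporter that carries prostaglandins, had 7.69, 7.67 and 7.61 in the knockout and 8.82, 8.80 and 8.84 in the wild-type. The wild-type signal was 2.24-fold that of the knockout (difference −1.16, SE 0.05, adjusted p = 8.86e-05). THBS1, thrombospondin 1, an adhesive matrix glycoprotein that also bridges dying cells to phagocytes, had 7.93, 7.98 and 7.88 in the knockout and 8.94, 8.97 and 8.95 in the wild-type. Within each line its 3 values lay close together (difference −1.02, SE 0.05, adjusted p = 0.000128). CCL2, the chemokine that draws monocytes, had 8.53, 8.57 and 8.63 in the knockout and 9.61, 9.55 and 9.50 in the wild-type. No knockout array came near the wild-type range (difference −0.98, SE 0.05, adjusted p = 0.00019).

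PRG2, the major basic protein of eosinophil granules, fell to 10.56, 10.53 and 10.50 in the knockout, against 11.28, 11.21 and 11.27 in the wild-type (−0.72, SE 0.04, adjusted p = 0.000219). Of the 12 measured eosinophil, basophil and mast cell markers 6 were below zero and 5 above, and PRG2 alone was called. The defensin DEFA4, an antimicrobial peptide of azurophil granules, had 7.39, 7.32 and 7.25 in the knockout and 7.89, 7.88 and 7.85 in the wild-type (−0.55, adjusted p = 0.00729); it lies in a family of similar genes that its probes could share. Cathepsin G (CTSG), a serine protease of the same granules, rose to 10.17, 10.24 and 10.29 in the knockout, against 9.55, 9.57 and 9.63 in the wild-type (0.65, SE 0.04, adjusted p = 0.00126). The specific and gelatinase granule list had 3 calls among 19 measured members, beside 0.353% of all genes called lower, and all were small: the protease inhibitor SLPI (−0.31, adjusted p = 0.0242), the gelatinase MMP9 (−0.27, adjusted p = 0.0313) and CYBB, the catalytic subunit of the NADPH oxidase (−0.23, adjusted p = 0.0328). SLPI, MMP9 and CYBB were each called in only 1 of the 6 fits that left out 1 array. Of the 19 measured members of this list, these included, 9 lay above and 10 below zero. Because these are bulk samples, fewer cells of a kind and less RNA per cell cannot be told apart.

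CD44, the hyaluronan receptor, had 10.19, 10.23 and 10.13 in the knockout and 10.71, 10.70 and 10.76 in the wild-type (−0.54, SE 0.04, adjusted p = 0.00193). Zyxin (ZYX), a focal adhesion protein that binds actin filaments, had 9.61, 9.68 and 9.74 in the knockout and 10.19, 10.15 and 10.15 in the wild-type (−0.49, SE 0.04, adjusted p = 0.00529). NRP1, a co-receptor of semaphorins and vascular growth factor, had 6.09, 6.12 and 5.89 in the knockout and 6.57, 6.51 and 6.66 in the wild-type (−0.55, adjusted p = 0.0308). In all 3 genes the lines were apart. MAPK9 encodes the stress kinase JNK2. It had 9.04, 9.13 and 9.12 in the knockout and 9.77, 9.71 and 9.67 in the wild-type (−0.62, SE 0.05, adjusted p = 0.00182).

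ATL3, an atlastin that shapes the endoplasmic reticulum, was lower in both of its probe sets (−0.78, adjusted p = 0.0151, and −0.74, adjusted p = 0.00596). RAB3C, a small GTPase of secretory vesicles, had 7.57, 7.30 and 7.39 in the knockout and 7.99, 8.10 and 8.11 in the wild-type (−0.65, adjusted p = 0.0125). The sodium-calcium-potassium exchanger SLC24A3 differed by −0.60 (adjusted p = 0.0424), and LAPTM4B, a membrane protein of lysosomes, by −0.51 (adjusted p = 0.0401). DRG1, a GTP-binding protein linked to translation, had 8.97, 9.18 and 9.05 in the knockout and 9.61, 9.57 and 9.58 in the wild-type (−0.52, adjusted p = 0.00997). MRPL49, a protein of the mitochondrial ribosome, had 9.47, 9.39 and 9.29 in the knockout and 9.85, 9.89 and 9.85 in the wild-type (−0.48, adjusted p = 0.00943). The next gene outside the 15, RAB27B at −0.48 (adjusted p = 0.00786), is described below with the ATRA arrays.

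Small RNA genes were passed over in choosing those 30 genes, and the ones named here were picked after their values were seen. The host locus of miR-142, a microRNA abundant in blood cells, had 7.74, 7.68 and 7.60 in the knockout and 8.14, 8.03 and 8.08 in the wild-type (MIR142, difference −0.41, adjusted p = 0.0213). The array reads the precursor locus and not the mature strands. These are given from RefSeq, build GRCh38.p14, minus strand, 5′ to 3′, with the seed, bases 2 to 8, in capitals, because their different seeds pair with different targets; miR-142-3p is at chr17:58331245-58331267 and miR-142-5p at chr17:58331283-58331303.
miR-142-3p: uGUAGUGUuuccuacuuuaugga
miR-142-5p: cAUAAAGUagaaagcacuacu
The small nucleolar RNA SNORD43 was lower (−0.41, adjusted p = 0.0227), SNORD35A was lower (−0.35, adjusted p = 0.0126) and SNORD57 higher (0.23, adjusted p = 0.0447). MIR99AHG, a host transcript of microRNAs, was higher (0.53, adjusted p = 0.0425). MIR142 and SNORD35A were called in 2 of the 6 fits that left out 1 array, and SNORD43, SNORD57 and MIR99AHG in 1.

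The gene lists held 718 genes of 32 pathways and cell types, of which 655 were measured. On them 20 genes were called (3.05%, against 0.907% of all genes), 6 higher and 14 lower, and 18 lists held at least 1 call. The lists were drawn up with earlier results of these data known, so nothing is read from that share. For comparison, over all 18417 genes the median difference was 0.0033, 48.5% were below zero, and in 19.6% the knockout and wild-type arrays did not overlap. Over the brighter genes, those at or above the median signal, the median was 0.0167. The part of signal level in the counts of a list was not tested. Of 32 NF-kB target genes, CCL2 and CD44 were called lower and none higher, 22 lay below zero and the median was −0.08. Of 39 chemokines and cytokines, 25 lay below zero (median −0.04), with CCL2 called lower and TNFSF13B, the B-cell survival factor BAFF, called higher at 7.35, 7.37 and 7.45 in the knockout, against 6.98, 6.85 and 6.97 in the wild-type (0.46, adjusted p = 0.0197). The neutrophil chemokine CXCL8 on the same list, which was not among the genes chosen by rule, read −0.37 without a call. Under median centring 20 of the 32 NF-kB targets and 23 of the 39 chemokines and cytokines lay below zero, beside 36.4% of all genes.

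Receptors and signalling genes had isolated calls. Of those given here, CSF3R, VAV3, DUSP6, ABCA1 and ANXA1 were each called in only 1 of the 6 fits that left out 1 array. STAP1, SLCO3A1, THBS1 and CD44 were called in all 6. CSF3R, through which the cytokine G-CSF drives neutrophil production, had 8.08, 8.05 and 8.04 in the knockout and 7.72, 7.66 and 7.73 in the wild-type (0.35, adjusted p = 0.0194). It was the call on both the list of 28 chemokine and cytokine receptors (median −0.04) and that of 26 neutrophil receptors (median 0.01). VAV3, a signalling protein downstream of antigen receptors, was lower (−0.44, adjusted p = 0.0371) and STAP1 higher on the list of 30 immunoreceptor signalling genes (median 0.00). DUSP6, a phosphatase that turns off ERK kinases, was lower (−0.28, adjusted p = 0.0328) among 28 immediate early genes (median −0.03). ABCA1, the cholesterol exporter, was lower (−0.38, adjusted p = 0.042) among 20 ABC transporters (median −0.05). SLCO3A1 was the call among 11 organic anion transporters, 9 of which lay below zero (median −0.14). The median member of that list had a mean signal at percentile 28.7 of all probe sets. Of 30 integrin, adhesion and matrix genes THBS1 and CD44 were called lower (median 0.02). On the list of 28 genes for the phagocytosis of dying cells THBS1 and ABCA1 were lower and ANXA1, a phospholipid-binding protein, was higher (0.21, adjusted p = 0.0464; list median −0.03).

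Apart from the specific and gelatinase granule list described above, lists of growth, stress and granule genes held 1 or 2 calls or none. Among 32 DNA replication genes the cyclin CCNE2 was lower (−0.28, adjusted p = 0.0471; list median 0.00), and among 25 mitosis genes none was called (median 0.00), with the kinase AURKA at −0.13 (adjusted p = 0.15) and CDK1 at −0.14 (adjusted p = 0.187). Of 28 genes of amino acid and unfolded protein stress, CTH, which makes cysteine from cystathionine, was higher in the knockout (0.58, adjusted p = 0.022; list median 0.00). On the list of 14 progenitor genes the cytokine-like CYTL1 was lower (−0.20, adjusted p = 0.0386; list median 0.05). Of 16 azurophil granule genes 11 lay above zero (median 0.05), with CTSG and DEFA4 called in opposite directions, and of 6 NADPH oxidase genes 4 lay below zero (median −0.14), with CYBB called. The promyelocyte marker list had CTSG as its call among 11 genes (median 0.02). CCNE2, CYTL1 and CYBB were each called in only 1 of the 6 fits that left out 1 array, CTH in 2, DEFA4 in 3 and CTSG in all 6.

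No member was called on 14 lists, whose medians ran between −0.07 for monocyte and macrophage markers and 0.06 for cholesterol and fatty acid synthesis. Beside TGM4 (adjusted p = 0.315) and TGM5 (adjusted p = 0.525) of the transglutaminases, the members with the smallest p were XAF1 (0.31, adjusted p = 0.111) and IFITM3 (0.35, adjusted p = 0.121) for the interferon response. For retinoid targets they were TNFAIP2 (−0.26, adjusted p = 0.11) and CD38 (0.29, adjusted p = 0.173), and for myeloid transcription factors RUNX2 (0.20, adjusted p = 0.119) and IRF8 (−0.28, adjusted p = 0.193). Ribosome biogenesis had BOP1 (0.31, adjusted p = 0.0698) and RRP9 (0.17, adjusted p = 0.0848). FASN (0.18, adjusted p = 0.0958) and SCD (0.13, adjusted p = 0.219) stood for lipid synthesis, where 16 of 22 genes lay above zero (median signal percentile 85.5). For glycolysis and hypoxia they were SLC2A3 (−0.23, adjusted p = 0.155) and PGK1 (−0.09, adjusted p = 0.279), for p53 targets DDB2 (0.10, adjusted p = 0.488) and SPATA18 (−0.17, adjusted p = 0.493), for metallothioneins MT1F (0.31, adjusted p = 0.0574) and MT2A (0.19, adjusted p = 0.0606), and for antigen presentation HLA-DPA1 (−0.29, adjusted p = 0.29) and CTSS (0.13, adjusted p = 0.42).

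Markers of other blood cells were read at the same time. Of all genes 48.5% lay below zero, in 19.6% the lines were apart, and 0.907% were called. Of 17 monocyte and macrophage markers 14 lay below zero, none was called and in none were the lines apart; CD68 had a difference of −0.09 (adjusted p = 0.416) and CD14 of −0.19 (adjusted p = 0.521). Of 12 erythroid and megakaryocyte markers 9 lay below zero, with ITGA2B at −0.28 (adjusted p = 0.186) and PPBP at 0.24 (adjusted p = 0.306). Under median centring 12 of the 17 monocyte and 8 of the 12 erythroid list members lay below zero, beside 36.4% of all genes. The median members of these lists had signals at percentiles 42.2 and 39.2 of all probe sets. The 17 lymphocyte markers were split 9 above and 8 below, with NCAM1 at −0.37 (adjusted p = 0.0849) and CD7 at −0.17 (adjusted p = 0.219). The part of such cells in the calls above was not tested.

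The ATRA arrays of the same lines share no array with the untreated comparison. Over those 12 arrays, with time in the fit, 23 probe sets were called between the genotypes (0.0691%), 4 higher in the knockout (0.012%) and 19 lower (0.0571%), and 2039 had an unadjusted p under 0.05. The 170 called single-gene probe sets of the untreated comparison had the same sign in 73.5% at 48 h, in 67.6% at 72 h and in 95 (55.9%) at both times. Over all single-gene probe sets these shares were 49.3%, 52% and 28.2%. The 103 that were higher in untreated knockout cells had the same sign at both times in 59 cases, with a median of 0.41 untreated and 0.14 under ATRA. The 67 that were lower did so in 36, with medians of −0.38 and −0.16. Choosing probe sets by their untreated differences enlarges their untreated medians, so these medians do not measure a change with ATRA. The spread between arrays was larger under ATRA, so a missing call there does not show that a difference was gone. Without single arrays the ATRA count was between 3 and 19. It fell to 13 without the 48 h knockout replicate 1, to 8 without either of the 72 h knockout replicates 1 and 2, to 3 without the 72 h knockout replicate 3, to 10 and 8 without the 48 h wild-type replicates 1 and 3, and to 10, 10 and 3 without the 72 h wild-type replicates 1, 2 and 3.

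The genes called in the same direction in both sets of arrays were IGF2BP2, CA2, ZYX, MRPL49 and PADI4. IGF2BP2 differed by 1.13 at 48 h and 1.44 at 72 h (adjusted p over both times 0.00805). CA2 differed by 0.87 and 0.88 (adjusted p = 0.0122). ZYX differed by −0.53 and −0.86 (adjusted p = 0.0122), and MRPL49 by −0.94 and −0.81 (adjusted p = 0.0239). PADI4, which converts arginine to citrulline in histones of neutrophils, was picked after its values were seen. It had 6.26, 6.25 and 6.18 in untreated knockout cells and 6.71, 6.63 and 6.65 in untreated wild-type cells (−0.43, adjusted p = 0.0252), and differed by −0.80 at 48 h and −0.94 at 72 h (adjusted p = 0.00805). Of the 6 untreated fits leaving out 1 array, PADI4 was called in 1, CA2 and MRPL49 in 3, and IGF2BP2 and ZYX in 4. These 5 are the shared single-gene calls without a replicate block in the ATRA fit. With the replicate number within time as a block, 138 probe sets were called in the ATRA arrays, and 11 of the 170 single-gene calls were among them, all with the same sign: these 5 and SLCO3A1, THBS1, GSN, HIP1, CD93 and GJA1.

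**Figure D3:**
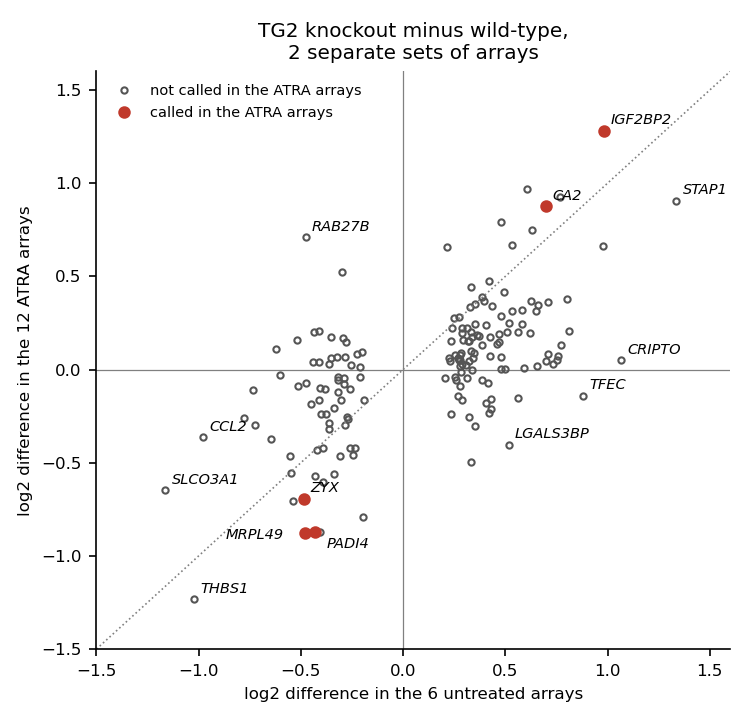
Log2 difference of TG2 knockout minus wild-type cells in the 6 untreated arrays (horizontal axis) and in the 12 ATRA arrays (vertical axis) for the 170 single-gene probe sets called in untreated cells. Filled points are the 5 also called in the ATRA arrays, and the dotted line marks equal differences; RAB27B and LGALS3BP lie in the quadrants of opposite sign.

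Of the 30 genes named by size, 20 kept their sign at both ATRA times, 8 of the highest and 12 of the lowest. STAP1 differed by 0.55 at 48 h and 1.27 at 72 h (adjusted p = 0.119), SLCO3A1 by −0.75 and −0.55 (adjusted p = 0.0568) and THBS1 by −1.16 and −1.30 (adjusted p = 0.869). THBS1 varied widely between ATRA arrays, with ranges that overlapped at both times. CCL2 differed by −0.23 and −0.49 (adjusted p = 0.82) and CD44 by −0.62 and −0.78 (adjusted p = 0.855). TFEC, by contrast, differed by −0.12 and −0.16 (adjusted p = 0.998), CRIPTO by −0.15 and 0.25 (adjusted p = 0.998) and MAPK9 by 0.00 and 0.22 (adjusted p = 0.998). The test of whether these differences changed with ATRA gave adjusted p of 0.185 for TFEC, 0.482 for CRIPTO and 0.149 for MAPK9.

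That test called 9 probe sets (0.027%), and 2 single-gene calls of the untreated comparison were among them. RAB27B, a small GTPase that docks secretory vesicles, had 8.16, 8.20 and 8.28 in untreated knockout cells and 8.71, 8.70 and 8.66 in untreated wild-type cells. Under ATRA the difference was positive, 0.61 at 48 h and 0.81 at 72 h (adjusted p = 0.0975), and the change of 1.19 had an adjusted p of 0.00326. LGALS3BP, a secreted glycoprotein that binds galectins, had 9.11, 8.97 and 8.91 in untreated knockout cells and 8.48, 8.45 and 8.51 in untreated wild-type cells (0.52, adjusted p = 0.0101). Its difference was −0.35 at 48 h and −0.45 at 72 h (adjusted p = 0.296), a change of −0.92 (adjusted p = 0.00617). Both genes were picked out after their values were seen.

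**Figure D4:**
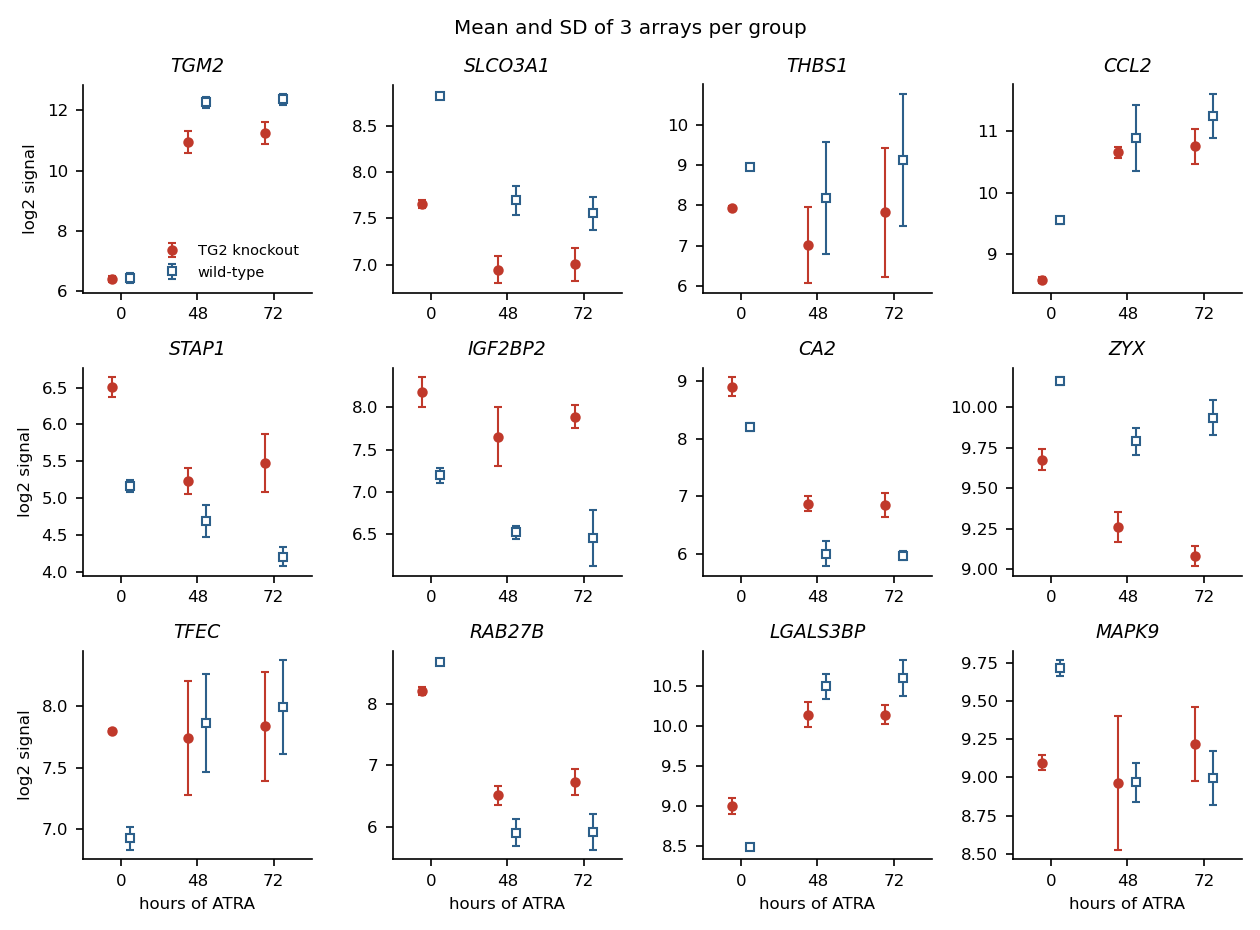
Mean log2 signal with SD (3 arrays per group) against hours of ATRA for TGM2 and 11 genes of the untreated comparison; filled circles are TG2 knockout and open squares wild-type cells, and each panel has its own vertical scale. TGM2 is at 6.39 in knockout and 6.43 in wild-type cells at 0 h and separates under ATRA, while RAB27B and LGALS3BP exchange order.

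Read along the chromosomes, the genes of chromosome 18 were lower in the untreated knockout as a group, a pattern noticed in these data. Over the brighter genes, those at or above the median signal, 111 of 123 genes of chromosome 18 (90.2%) lay below zero, with a median of −0.11. Each gene was set against its untreated wild-type mean, and the median of all brighter genes was then taken off. On that measure the 3 knockout arrays stood at −0.13, −0.14 and −0.12, and the 3 wild-type arrays at −0.01, 0.00 and 0.00. The wild-type values are centred by construction and show only the spread between those arrays. The shift ran along the whole chromosome: in 4 equal blocks of genes, 28 of 31, 28 of 31, 29 of 31 and 26 of 30 lay below zero. Of the 264 measured genes of chromosome 18, 6 were called, all lower, beside 0.353% of all genes called lower. They were RAB27B, the vesicle GTPase RAB31 (−0.26, adjusted p = 0.0328), the TGF-beta signal transducer SMAD2 (−0.22, adjusted p = 0.0425), the proteasome deubiquitinase USP14 (−0.21, adjusted p = 0.0445), RMC1 (−0.29, adjusted p = 0.0386) and METTL4 (−0.35, adjusted p = 0.0328). RAB27B was called in 3 of the 6 fits that left out 1 array, and each of the others in only 1. Calls in 1 direction were not particular to this chromosome. Chromosomes 3, 6 and 13 had 9, 9 and 6 genes called higher and none lower, and chromosome 15 had 4 lower and none higher. Over all genes rather than the brighter ones, 187 of 264 (70.8%) lay below zero with a median of −0.07.

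Chromosome 22 stood below the rest to a smaller extent. On the same measure its knockout arrays were at −0.07, −0.05 and −0.07 and its wild-type arrays, again centred by construction, at 0.00. Of 231 brighter genes 164 (71%) lay below zero. Of all its 423 measured genes 6 were called, all lower, beside 0.353% of all genes called lower. They were DRG1, the clathrin gene CLTCL1 (−0.32, adjusted p = 0.0271), GRAMD4 (−0.34, adjusted p = 0.0424), SNORD43, CYTH4 (−0.34, adjusted p = 0.0388) and DMC1 (−0.45, adjusted p = 0.0364). DRG1 was called in 3 of the 6 fits that left out 1 array, and each of the others in only 1. On the other 21 chromosomes the median lay between −0.02 and 0.02 relative to all brighter genes, with 31.7% to 50.5% of genes below zero. Not set against other genes, the median of chromosome 18 was −0.11 in the deposited scaling, −0.08 with median centring and −0.11 with quantile normalization, and that of chromosome 22 was −0.04, −0.01 and −0.03. In the ATRA arrays, relative to all brighter genes, the knockout minus wild-type median of chromosome 18 was −0.02 at 48 h and 0.04 at 72 h, and that of chromosome 22 was 0.00 at 48 h and −0.07 at 72 h. For single ATRA arrays each gene was set against the wild-type mean of the same time, which again centres the wild-type arrays. At 48 h the knockout arrays read 0.02, −0.10 and 0.05 for chromosome 18, against 0.03, −0.01 and 0.00 in the wild-type arrays. At 72 h they read 0.08, 0.03 and 0.03 in the knockout, against 0.03, −0.06 and 0.01 in the wild-type. For chromosome 22 the knockout arrays read −0.03, 0.11 and −0.09 at 48 h, against −0.02, 0.05 and −0.03 in the wild-type, and −0.06, −0.05 and −0.08 at 72 h, against −0.04, 0.05 and −0.02 in the wild-type.

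**Figure D5:**
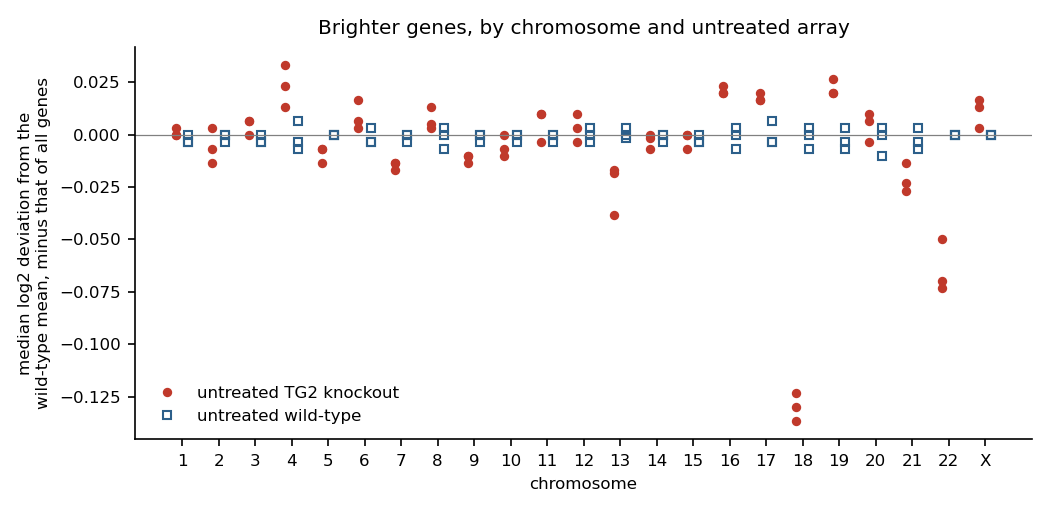
Median log2 deviation of the brighter genes from their untreated wild-type mean, minus the same over all brighter genes (vertical axis), for each chromosome (horizontal axis). Filled circles are the 3 untreated TG2 knockout arrays and open squares the 3 untreated wild-type arrays; chromosome 18 lies near −0.13 in every knockout array and chromosome 22 between −0.07 and −0.05.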

How the data were processed

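The values deposited by the authors were taken as log2 from their range, which runs from 0.76 to 13.4 in the untreated arrays. Per the labels' protocols, biotin-labelled cDNA was made from total RNA for whole-transcript Affymetrix arrays; how background, normalization and probe summary were handled is not given in the sources used. No further normalization was applied. The 33297 probe sets comprise 19460 with a single annotated gene, 1754 with several and 12083 with none; 974 have values identical to another's.

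The 6 untreated arrays were fitted alone in limma 3.58.1 (R 4.3.3) with a mean-variance trend, 2-sided, with Benjamini-Hochberg adjustment over all probe sets and a threshold of 0.05. The 12 ATRA arrays were fitted with time and genotype, and the change with ATRA over all 18 arrays with a weight per group. The scripts were tested on simulated data. Named genes are TGM2, the 15 highest and 15 lowest differences among called single-gene probe sets (small RNA and unnamed genes passed over; of tied genes, the lower probe set number), and per list up to 4 called members, or, on a list without a call, the 2 of smallest p. A gene with several probe sets is otherwise given by the brightest. Members and lists were chosen with earlier results of these data known, and lists are described by counts, without a set test. Alternatives covered scaling, dim probe sets, variance model, weights, replicate block and single arrays. The number of arrays limits the precision.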

Additional observations from a re-analysis of the deposited data

Results flagged for a closer look

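The limma test of whether the genotype difference under ATRA departed from the untreated one called 9 probe sets, adjusted over all probe sets. The 4 given here are TGM2 and those also called in untreated cells. For TGM2 the change was −1.19 (SE 0.19, adjusted p = 0.0415). For LGALS3BP it was −0.92 (SE 0.12, adjusted p = 0.00617) with an untreated difference above zero and an ATRA difference below it. For RAB27B it was 1.19 (SE 0.14, adjusted p = 0.00326) with the opposite signs. Probe set 7958377, which has no annotated gene, changed by 2.37 (SE 0.25, adjusted p = 0.00111): it read 2.03, 1.80 and 1.66 in untreated knockout cells and 2.80, 2.46 and 2.73 in untreated wild-type cells, and under ATRA the difference averaged 1.54. Its untreated signals are near the low end of the scale, where no background level is known.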

How the results depend on the processing

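The count of 284 called probe sets was 326 with quantile normalization, 249 with median centring, 279 with robust eBayes and 309 with all 18 arrays and a weight per group, of which 146 were among the 284. It was 467 in brighter probe sets only, 726 in probe sets of 1 gene only, 825 with array weights, 31 without a variance trend and 2 with all 18 arrays at equal spread. Leaving out 1 array gave 16 to 1471. Replicate numbers do not pair the untreated arrays: same-numbered arrays had r of −0.06, −0.06 and −0.13 across probe sets, and the replicate block gave 8 calls. The 23 calls of the ATRA arrays were 31, 23, 33 and 25 with quantile normalization, median centring, brighter probe sets and robust eBayes, and 12 without a trend. With the replicate block within time there were 138; same-numbered r was 0.20, 0.19 and 0.09 at 48 h and 0.10, 0.16 and 0.14 at 72 h. At 48 h alone limma called 0 (888 at an unadjusted p under 0.05) and at 72 h alone 0 (2234). Leaving out 1 of the 12 ATRA arrays, chosen after seeing the data, gave 3 to 19. TGM2's untreated difference, −0.04 with the deposited scaling, was 0.0134 with array weights, 0.0083 without knockout replicate 1 and 0.055 without wild-type replicate 3 (single arrays left out: −0.115 to 0.055). Of the 30 named genes, 30 stayed called with robust eBayes, array weights and single-gene probe sets, 29 with either scaling, 27 with weights per group, 21 of 21 tested in brighter probe sets, 14 without a trend, 6 with the block, 2 at equal spread, and 8 to 30 without single arrays. The causes of these shifts were not tested.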
